A study of Mus musculus with 12 samples.

Results

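The strongest CREB binding sites found in both fasted and re-fed mouse liver were described from ChIP-seq peak lists. A site entered the set when its name stood in the final list of both conditions and its height in the pool of fasted livers was 3 RPM (reads per 1000000 reads of the pool) or more. Of the 7547 sites in the merged lists, 496 met this rule, which is 6.57% of all sites and 10.7% of the sites called in both conditions. Being called in both conditions is part of the rule, and it holds for 61.5% of all merged sites (4645 of 7547), while 2190 sites appear in the fasted list alone and 712 in the re-fed list alone. Livers came from male C57BL/6J mice of 8 to 12 weeks, all of which went without food for 24 h. In the fasted group 5 livers were taken at once, at zeitgeber time 3, and in the re-fed group 5 livers were taken after 2 h of access to food, at zeitgeber time 5, so feeding and the hour of collection cannot be told apart. ChIP was done per liver with the CREB antibody sc-186, which binds the phosphorylated and the unphosphorylated protein. Each list was called on the pooled reads of a condition and holds no value of a single mouse, and the spread between mice was not analysed here. Single libraries of the glucocorticoid receptor and of CEBPB from mice fed ad libitum were not analysed here. Whole liver was used, and a height does not separate the share of nuclei in which a site is bound from how strongly it is bound in each.

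CREB (cAMP response element binding protein) is a basic leucine zipper factor that binds DNA as a dimer. Its palindromic target is the full cAMP response element (CRE), TGACGTCA, and it also binds the half-CRE, TGACG, which is contained in the full one. In fasting, glucagon raises cAMP in hepatocytes, protein kinase A phosphorylates CREB, and genes of glucose production such as Pck1 and G6pc are induced. Many CREB sites lie at the promoters of genes that are active in most cell types.

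The stretch around 1 CRE upstream of each of 12 genes is shown first, so that the motif can be read in its surroundings. The genes were picked because their promoter holds the motif, so its presence in the stretches is no result. They belong to the strongest sites that have a gene in the study's tables and a RefSeq promoter with a full CRE or, failing that, a half-CRE before the gene's start, which leaves out stronger named sites such as those of Psmb2 and Ppil4. Each stretch is written 5′ to 3′ on the strand of the gene, stops before the start of the transcript, and carries the motif in capitals, where TGACG and CGTCA are the half-CRE read on either strand. Sequences and their coordinates are those of RefSeq on GRCm38.p6, whereas the peak lists use mm8, so a stretch was found through the gene and not through the coordinates of the site.
Ndufa10 (chr1:92473804-92473839, minus strand): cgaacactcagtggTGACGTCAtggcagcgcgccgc
Nup214 (chr2:31974392-31974427, plus strand): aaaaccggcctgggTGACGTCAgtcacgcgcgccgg
Rrnad1 (chr3:87930202-87930234, minus strand): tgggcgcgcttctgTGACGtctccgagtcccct
Fbxw7 (chr3:84952016-84952048, plus strand): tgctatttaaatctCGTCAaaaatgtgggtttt
Tpr (chr1:150392796-150392828, plus strand): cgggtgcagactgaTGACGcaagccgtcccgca
BC031781 (chr1:180851085-180851117, plus strand): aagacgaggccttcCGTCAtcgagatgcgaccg
BC026590 (chr4:56802288-56802320, plus strand): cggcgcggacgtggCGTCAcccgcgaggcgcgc
Rrp1 (chr10:78413050-78413082, minus strand): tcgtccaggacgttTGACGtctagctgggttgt
Bysl (chr17:47611672-47611704, minus strand): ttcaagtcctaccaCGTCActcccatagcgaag
Fdxacb1 (chr9:50768154-50768186, plus strand): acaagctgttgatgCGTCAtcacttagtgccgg
Anapc2 (chr2:25272425-25272457, plus strand): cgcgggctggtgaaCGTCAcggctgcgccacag
Cwc25 (chr11:97766681-97766713, minus strand): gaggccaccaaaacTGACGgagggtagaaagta
The full CRE stood in 2 of these 12 stretches, at Ndufa10 and Nup214, and the other 10 carried the half-CRE. In 8 of these 10 the promoter window held further half-CREs that are not shown, for 2 to 4 in all. The one shown is that nearest to the centre of the site or, where the site has no position, to a point 60 bases before the start, so its place is no result either. At Ndufa10 the full CRE lay 67 to 60 bases before the start, and the centre of the site lay 58 bp before the start listed in mm8. At Nup214 the motif lay 44 to 37 bases before the start and the centre of the site 32 bp before it. The Fbxw7 site is different in kind, because its centre lay 1101 bp upstream of the listed start, outside the promoter window in which the printed half-CRE was found. No position relative to a start was computed for the Rrp1, Bysl, Fdxacb1 and Cwc25 sites.

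The next 4 strong sites with a full CRE before the start of their gene, which were chosen after their values were seen, have these stretches.
Rnmtl1 (chr11:76243702-76243735, plus strand): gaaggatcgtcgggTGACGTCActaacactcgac
Tbck (chr3:132684110-132684143, plus strand): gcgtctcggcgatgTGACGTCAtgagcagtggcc
Aptx (chr4:40703195-40703225, minus strand): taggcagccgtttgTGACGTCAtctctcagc
Ap2b1 (chr11:83302636-83302671, plus strand): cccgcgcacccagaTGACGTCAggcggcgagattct
The bases on either side of the motif differed between these stretches, whereas the 8 bases in capitals are the same by the way they were found. These genes code for a mitochondrial RNA methyltransferase (Rnmtl1, now Mrm3), a kinase-like protein (Tbck), a DNA end repair enzyme (Aptx) and a subunit of the clathrin adaptor AP2 (Ap2b1). Their sites had heights of 6.14, 6.02, 5.76 and 5.67 RPM. The site of 9530068E07Rik, also with a full CRE before the start, ties in height with that of Ap2b1, and its stretch is not shown.

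The members were chosen by their fasted height and by their presence in both lists, so these values are given as a description. A height is the largest stack of extended reads within the site, and 1 read was worth 0.0236 RPM, which corresponds to a fasted pool of 42363292 reads. The 496 sites had a median height of 4.25 RPM, quartiles of 3.47 and 5.48 RPM and a range from 3.02 to 13.6 RPM, or 128 to 576 stacked reads. The median over all merged sites was 0.708 RPM. The strong shared sites thus stood 6 times higher at the median, and they made up 27.2% of the summed height of all merged sites. Of the 496 sites, 152 reached 5 RPM, 51 reached 7 RPM and 10 reached 10 RPM. The plot of heights shows the set as the upper tail of 1 continuous distribution, with no gap at the threshold.

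**Figure D1:**
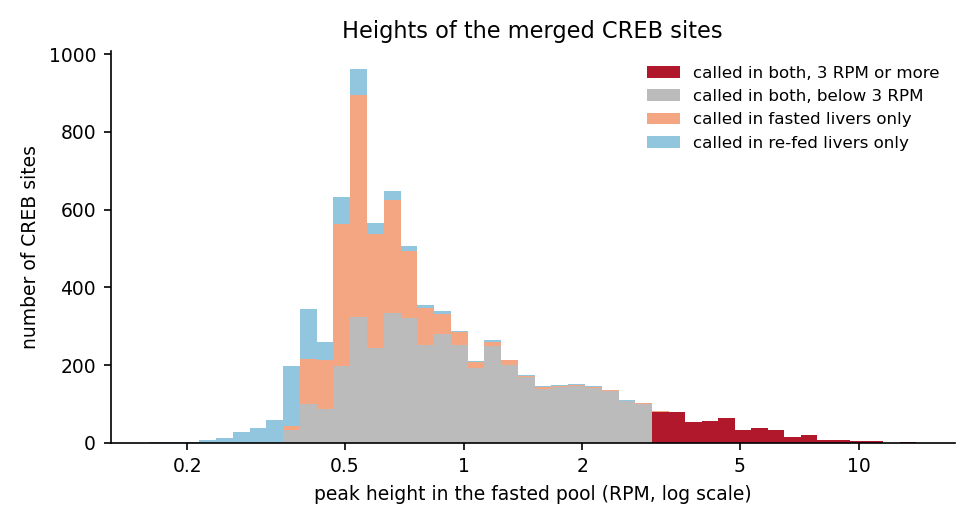
Number of merged CREB sites by peak height in the fasted pool (RPM, log scale), stacked by where a site was called. The 496 sites called in both conditions at 3 RPM or more (dark red) form the right tail, and sites called in 1 condition are concentrated below 1 RPM.

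The threshold falls between sites that differ by 1 read. Just inside it, 10 members shared the lowest height of 3.02 RPM (128 reads), among them sites at Dnajb12 on chromosome 10 (59274881 to 59275001), Garnl3 on chromosome 2 (32840193 to 32840304) and Atp5d on chromosome 10 (79544485 to 79544619), and 2 sites with no gene name here on chromosome 19 (5610011 to 5610136) and chromosome 8 (74600697 to 74600814). Just outside it, 10 shared sites had 127 reads, or 2.998 RPM. The 95% Poisson interval of a height of 128 reads runs from 2.52 to 3.59 RPM, so membership at the edge is within counting error. For 353 of the 496 sites (71.2%) the lower bound lay above 3 RPM, and this covers counting error only.

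The highest site lay on chromosome 13, from 46738936 to 46739054, with 13.6 RPM (95% Poisson interval 12.5 to 14.8). It has no gene name here. The second site lay on chromosome 4, from 126179864 to 126179976, at Psmb2, which codes for a catalytic-core subunit of the proteasome, and had 11.4 RPM (10.4 to 12.5). The third, on chromosome 10 from 7482999 to 7483109 at Ppil4, a peptidyl-prolyl isomerase-like protein, had 11.2 RPM (10.2 to 12.3). The lower bound of the first site (12.51 RPM) just clears the upper bound of the second (12.46 RPM), whereas from the second to the tenth site each interval overlaps the next, so their order is not resolved by the reads. The other 7 of the first 10 had heights from 10.1 to 10.8 RPM and lie on chromosomes 4, 5, 6, 8, 9, 15 and 19, with no gene name here.

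Nearly every site above the threshold was called in both conditions, which is a description since the call is part of the rule. Of 499 sites at 3 RPM or more, 496 were shared (99.4%, Wilson interval 98.3% to 99.8%). Shared calls made up 26.5% of the 1583 sites under 0.5 RPM, 44.3% of the 2537 sites from 0.5 to 0.75 RPM, 77.3% from 0.75 to 1 RPM and 93.9% from 1 to 1.5 RPM. At 4 RPM or more all 284 sites were shared. The share therefore levelled off well below the threshold of the set.

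Of the 3 strong sites missing from the set, the one on chromosome 5 from 114434075 to 114434185 (3.21 RPM) was in the fasted list alone. It is listed by the study at Acacb, the mitochondrial acetyl-CoA carboxylase, which restrains the entry of fatty acids into mitochondria. Another fasted-only site lay on the Y chromosome (1341772 to 1341882, 3.19 RPM). The re-fed-only site lay on chromosome 4 (146748469 to 146748577) and had 3.80 RPM in the fasted pool although it is absent from the final fasted list.

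Both lists carry the same interval for each of the 4645 shared sites, and its width bears on how closely the fasted and the re-fed call coincided. Sites of the fasted list alone were all 111 bp wide, and those of the re-fed list alone all 109 bp. A merged interval taken as the union of the 2 calls is therefore wider by the distance between their centres. The strong shared sites had a median width of 116 bp (interval of the median 116 to 117), or a distance of 6 bp between the centres. The 4149 weaker shared sites had a median width of 123 bp, or 13 bp between the centres. Among the strong sites the middle 50% lay between 3 and 11 bp.

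Wide offsets were rare in the set. Only 27 of 496 sites (5.44%, Wilson interval 3.77% to 7.80%) had centres more than 20 bp apart, against 1380 of 4149 weaker shared sites (33.3%, interval 31.8% to 34.7%). Small offsets were not particular to the set, since sites from 2 to 3 RPM, just below the threshold, had a median offset of 7 bp and a 90th percentile of 20 bp, against 7 bp and 17 bp from 3 to 4 RPM. The minimum width of 111 bp, at which the centres are at most 1 bp apart, was found in 61 strong sites (12.3%, interval 9.69% to 15.5%) and in 269 weaker ones (6.48%, interval 5.77% to 7.27%). These intervals do not overlap, but they cover counting error over sites and not the spread between mice. Across the shared sites the Spearman correlation of height and offset was -0.35 (n = 4645 sites from the same pools), and within the set it was -0.15 (n = 496). Deeper stacks of reads go with the height itself, and the part of depth in the offset was not tested.

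**Figure D2:**
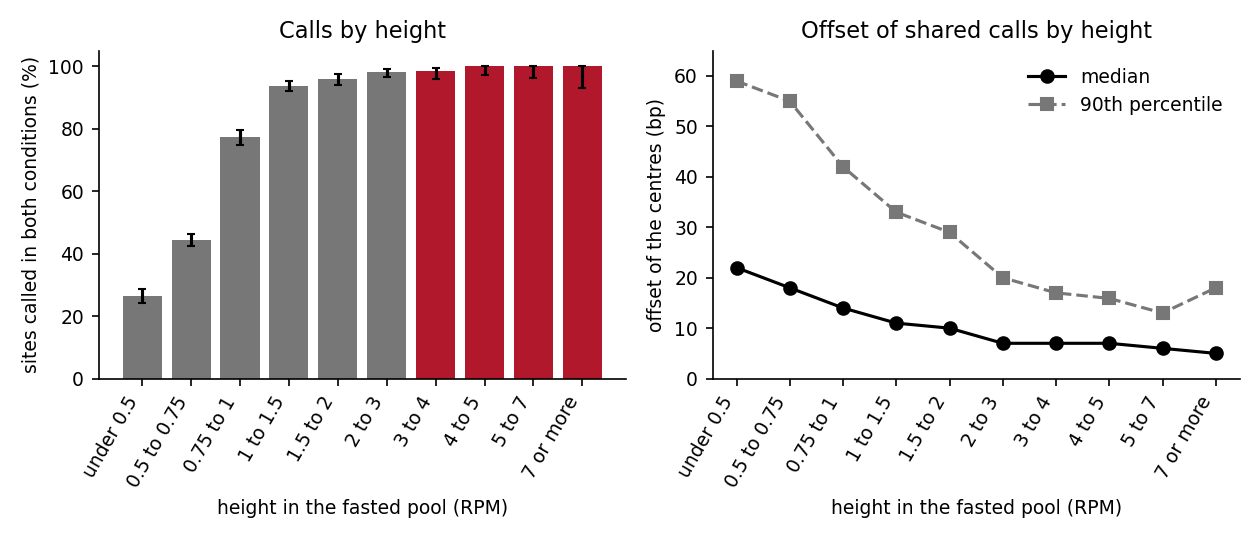
Left, percentage of merged CREB sites called in both conditions by height in the fasted pool, with 95% Wilson intervals and with the bins at 3 RPM or more in red. Right, median and 90th percentile of the distance between the fasted and the re-fed centre at shared sites: the median was 22 bp under 0.5 RPM and 5 bp at 7 RPM or more.

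Of the 6 widest strong sites, 3 carry a gene name here. The widest strong site, 178 bp on chromosome 11 from 93811972 to 93812149 at Spag9, a scaffold protein of JNK signalling, implies centres 68 bp apart. It had a height of 3.07 RPM, near the threshold. Next was a site of 151 bp at Sar1a, the GTPase that starts COPII vesicle coats, with centres 41 bp apart and 3.92 RPM. Sites with no name here followed, of 150 bp on chromosome 6 (3.78 RPM) and 145 bp on chromosome 8 (3.14 RPM), and a further one of 144 bp on chromosome 9 had 4.67 RPM. Eprs, the glutamyl-prolyl-tRNA synthetase, also at 144 bp, had a higher site (5.50 RPM) with centres 34 bp apart. At the other extreme, the sites of Ppil4, Ndufa10 and Nup214 had the minimum width.

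Strong shared sites mostly stood alone. Another CREB site lay within 1000 bp, measured between centres, for 23 of 496 (4.64%, Wilson interval 3.11% to 6.86%), against 486 of 4149 weaker shared sites (11.7%, interval 10.8% to 12.7%) and 1035 of all 7547 sites (13.7%). Within 500 bp the shares were 2.82% and 7.23%, and within 5000 bp 7.86% and 17.3%. The lower share in the set thus held at each distance. In the 23 pairs that include a strong site, the weaker partner stood in both lists in 12, in the fasted list alone in 9 and in the re-fed list alone in 2, with a median height of 0.968 RPM.

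In 1 pair both sites belonged to the set. They flank each other at Csnk1g2, a casein kinase 1 isoform, on chromosome 10, at 80025111 to 80025230 (4.08 RPM) and 80025720 to 80025853 (3.56 RPM), with centres 616 bp apart. The strongest site with a near partner had 8.95 RPM, on chromosome 5 from 114033723 to 114033839, and its partner, called only in the fasted livers, had 0.873 RPM. The highest partner outside the Csnk1g2 pair was found at Trp53inp2, a regulator of autophagy, where a site of 4.06 RPM had a partner of 2.79 RPM at a distance of 383 bp.

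The number in each site's name ranks the merged sites by the mean of their pooled fasted and re-fed heights, which gives some information on the re-fed livers that the height column does not hold. This rank includes the fasted height that chose the members and is described only. Of the first 496 places by name, 473 were held by members. The other 23 places were held by 19 shared sites with fasted heights from 2.74 to 3.00 RPM, 3 fasted-only sites and 1 re-fed-only site. All of the 10 strongest sites by fasted height were among the first 10 by name. The median shift between both ranks was -1 place (interval -3 to 0), and 278 of the 496 sites moved by at most 20 places.

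Only 12 members moved by over 100 places, 5 towards the top and 7 away from it. The largest upward move was that of a site on chromosome 14 (68238433 to 68238558) listed for Slc25a37, mitoferrin-1, which carries iron into mitochondria. It tied for place 481 by fasted height and stood at place 328 by name. With 3.07 RPM it ranks above a site on chromosome 9 (21821762 to 21821873, place 334) that had 4.49 RPM in the fasted pool. If the rank follows the mean of both pooled heights, the re-fed height of the Slc25a37 site exceeded that of the chromosome 9 site by at least 1.42 RPM. The chromosome 9 site had itself moved away from the top, from place 212.5 by fasted height. The paper lists it among its few differentially bound sites, with more CREB in the fasted livers. The re-fed height of either site was not analysed here. In the other direction, a site on chromosome 5 (145485198 to 145485310) went from place 481 by fasted height to 624 by name, and the weaker site at Csnk1g2 from 352 to 492. The fasted heights of the 12 sites lay between 3.02 and 4.49 RPM.

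Members were found on all 19 autosomes and on neither sex chromosome. The X chromosome held 122 merged sites and 0 of them were members, which allows a share of up to 2.46% of X sites when 3 counts are taken as the limit of a count of 0 (Wilson upper bound 3.05%), whereas 6.69% of the 7414 autosomal sites were members (Wilson interval 6.14% to 7.28%). The median over all merged sites was 0.708 RPM on the X chromosome and on the autosomes. Among the sites called in both conditions, from which members come, it was 0.791 RPM for 88 X sites (interval of the median 0.637 to 0.944) and 0.991 RPM for 4552 autosomal sites (interval 0.968 to 1.02). At 1 RPM or more the shares were 27.9% of X sites (interval 20.7% to 36.4%) and 31.4% of autosomal sites. At 1.5 RPM or more they were 7.38% (interval 3.93% to 13.4%) and 19.7% (interval 18.8% to 20.6%), and at 2 RPM or more 4.92% (interval 2.27% to 10.3%) and 13.5% (interval 12.7% to 14.3%). The lower share on the X chromosome was thus seen below the threshold of the set as well. The highest X site, on the X chromosome from 53400276 to 53400394, had 2.97 RPM and missed the threshold by 2 reads. The mice were male and carry 1 X chromosome, and the part of copy number in these heights was not tested.

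**Figure D3:**
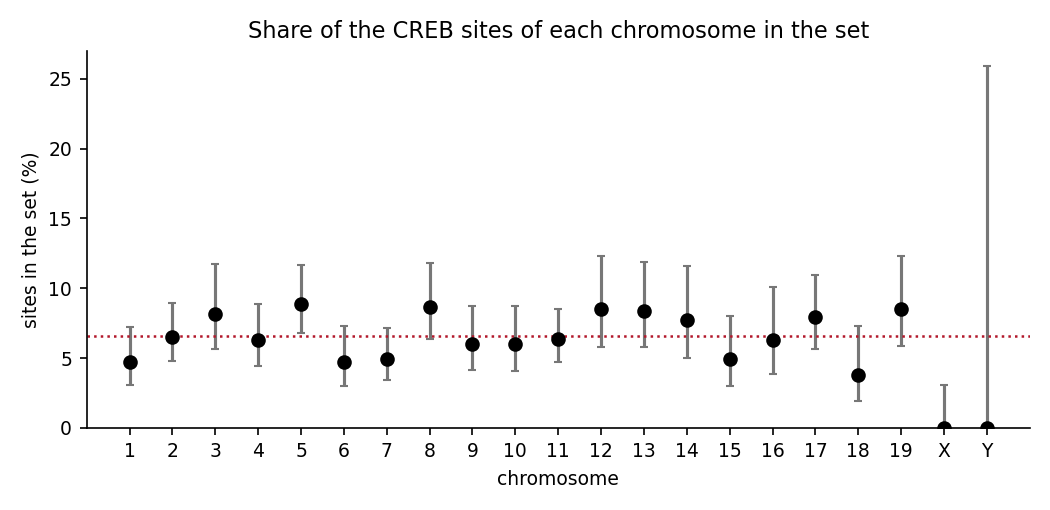
Percentage of the merged CREB sites of each chromosome that belong to the set, with 95% Wilson intervals; the dotted line marks the 6.57% of all merged sites. Points of the 19 autosomes scatter around the line, and X and Y are at 0.

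Position relative to genes was taken from the gene starts that the study lists in mm8, on the 3 chromosomes (1, 2 and 3) for which the rows used here are complete. Of the 82 strong shared sites there, 70 had their centre within 200 bp of a listed start (85.4%, Wilson interval 76.1% to 91.4%). The share was 61.3% of 715 weaker shared sites (interval 57.6% to 64.8%) and 50.5% of 495 sites called in 1 condition (interval 46.1% to 54.9%), and 58.7% of all 1292 sites. Within 100 bp the shares were 78.0%, 49.1% and 38.2%. Sites inside a gene and over 200 bp from any start were 1 of 82 in the set and 120 of 715 among the weaker shared sites (16.8%).

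The 70 promoter sites lay slightly upstream of the start, with a median position of -29 bp (interval of the median -35.5 to -16). For the 438 weaker shared sites within the same distance the median was -42.8 bp (interval -49.5 to -37). For the 250 sites called in 1 condition it was -33 bp (interval -40 to -23), which overlaps the interval of the strong sites. These are signed positions, and the centre lay upstream in 52 of 70 strong sites (74.3%, Wilson interval 63.0% to 83.1%), in 368 of 438 weaker shared ones (84.0%, interval 80.3% to 87.2%) and in 171 of 250 called in 1 condition (68.4%, interval 62.4% to 73.9%).

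**Figure D4:**
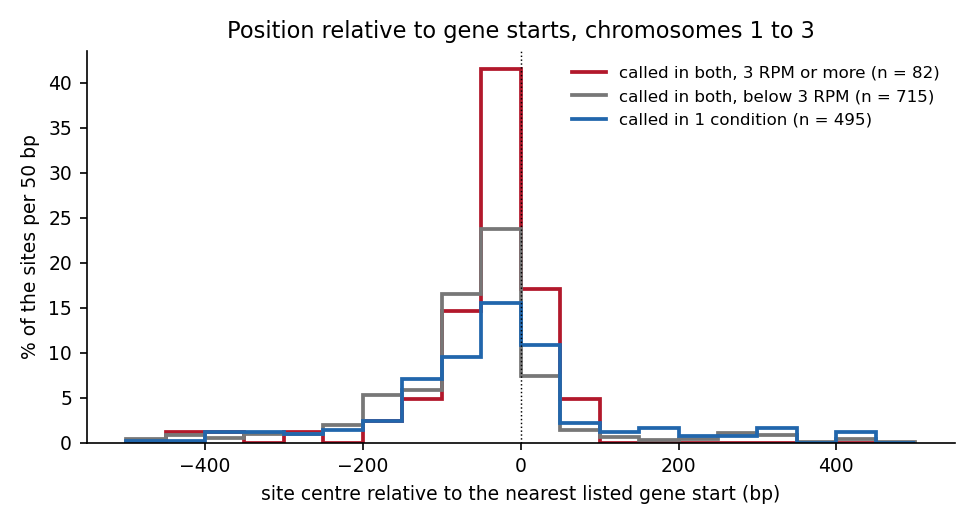
Distribution of site centres around the nearest listed gene start on chromosomes 1 to 3, as percentage of the sites of each class per 50 bp; negative values are upstream. The strong shared sites (red) peak just upstream of the start, above the weaker shared sites (grey) and the sites called in 1 condition (blue).

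Many of the strong sites lay near starts on both strands. On the same chromosomes, 29 of 82 strong sites (35.4%, Wilson interval 25.9% to 46.2%) lay within 1000 bp of the starts of genes on opposite strands, compared with 73 of 715 weaker shared sites (10.2%, interval 8.20% to 12.6%) and 11.9% of all sites there. Among sites within 200 bp of a start, the shares were 41.4% of 70 strong, 15.1% of 438 weaker shared and 20.0% of 250 sites called in 1 condition. Whether the genes of a pair run in divergent directions was not checked. Examples are Rrnad1 with Isg20l2, a nucleolar exonuclease (8.00 RPM), and Tpr, a protein of the nuclear pore basket, with BC003331 (7.84 RPM). At Rbm18 and Mrrf, the mitochondrial ribosome recycling factor, the height was 7.29 RPM, and at Anapc2, a core subunit of the anaphase promoting complex, with Ssna1 it was 7.11 RPM. A single site of this kind is listed for both genes, and which of them it serves was not measured. Further pairs were Mttp, needed for the assembly of lipoproteins in liver, with Rg9mtd2 (3.87 RPM) and Harbi1 with the autophagy gene Atg13 (3.23 RPM).

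The few strong sites away from a start were also looked up. Of the 12 sites on chromosomes 1 to 3 without a start within 200 bp, 2 had no listed gene, 9 lay upstream of a gene and 1 inside a gene. The Fbxw7 site (7.86 RPM) was the strongest of them, and Fbxw7 codes for the substrate receptor of a ubiquitin ligase. Sites at Ppig, Rbm15, Slc35f5, Ankrd13c and Rprd1b lay 288 to 507 bp upstream, which is still close to the start. The site inside Garnl3 (3.02 RPM) lay 68964.5 bp from its start.

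The letters of the CRE were counted in RefSeq promoters, as 250 bases before and 50 bases after each start on GRCm38.p6, searching TGACGTCA and TGACG on both strands. A match says only that the letters are present in this window, and a half-CRE is counted wherever a full one stands. Of 27025 genes with a promoter, 549 had a full CRE (2.03%) and 6228 a half-CRE (23.0%). Genes at sites were taken only from chromosomes whose listed starts were used here, so they cover part of the set. Among 77 genes whose start lay within 200 bp of a strong shared site, 26 had a full CRE (33.8%, Wilson interval 24.2% to 44.9%) and 67 a half-CRE (87.0%, interval 77.7% to 92.8%). Among 693 genes with only weaker or unshared sites at the start, 32 had a full CRE (4.62%, interval 3.29% to 6.45%) and 379 a half-CRE (54.7%, interval 51.0% to 58.4%).

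The share with a full CRE did not climb evenly with height. It was 1.34% of 373 genes with sites under 0.75 RPM, 2.36% of 212 genes from 0.75 to 1.5 RPM, 19.1% of 115 genes from 1.5 to 3 RPM and 37.0% of 54 genes from 3 to 5 RPM. For 23 genes with sites of 5 RPM or more it was 26.1%, with an interval of 12.6% to 46.5% that includes the value of the bin below. The half-CRE was found for 37.8%, 67.0%, 87.8%, 83.3% and 95.7% of the genes in these 5 bins, so sites from 1.5 to 3 RPM, below the threshold, had it about as often as the set. With 1 mismatch allowed, the full CRE was found for 63.6% of the genes in the set, 20.6% of the genes of other sites and 14.2% of all promoters. Strong sites also lay more often within 200 bp of a start and near starts on both strands, and the part of these features in the CRE shares was not tested.

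**Figure D5:**
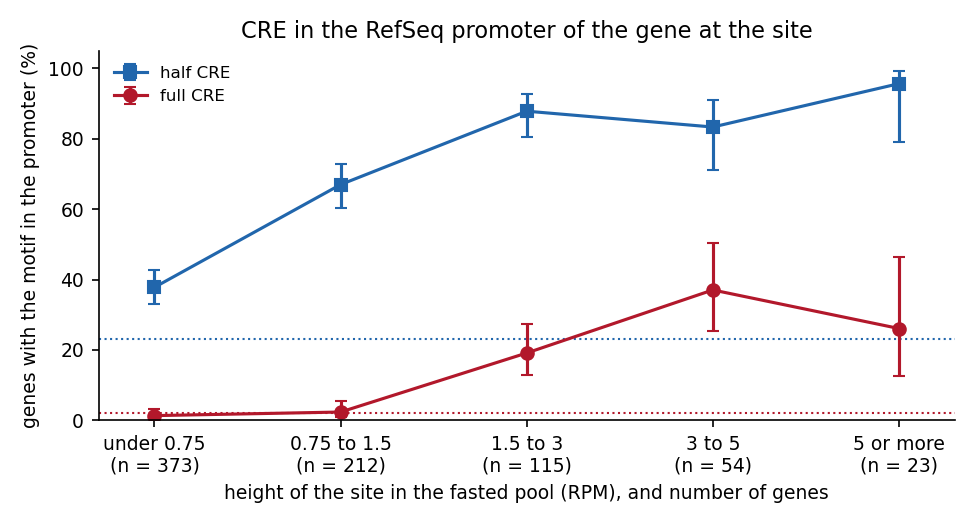
Percentage of genes with a full or half-CRE in the RefSeq promoter, by the height of the CREB site within 200 bp of the gene's start, with 95% Wilson intervals; dotted lines mark the share over all promoters. A gene with several sites can stand in more than 1 bin. Genes at sites come only from chromosomes whose listed starts were used.

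Where a full CRE was present, the centre of the site lay close to it. For the 26 genes of strong shared sites, the nearest full CRE lay a median of 8 bp from the site's centre (interval 5 to 13) when both were measured from the start of the gene, and in 23 of 26 it lay within 25 bp. For the 32 genes of other sites the median was 11.3 bp and the CRE lay within 25 bp in 26 of 32. Starts were those of each build, so a start annotated differently shifts this distance.

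Genes could be named for 187 of the 496 sites (37.7%), namely those whose rows in the study's tables were used here. Of the 25 strongest named sites, 5 (those of Bysl, Fdxacb1, Hnrpdl, Tmem39a and Unkl) were named only because their gene stood in the sheet of fasting-regulated genes, so the roles given here describe the sites that could be named and not the set. Besides Psmb2, Ppil4 and the nuclear pore genes Nup214 (9.51 RPM) and Tpr, the 25 sites include that of Ndufa10 (9.51 RPM), a subunit of respiratory complex I. Genes of ribosome formation in this group are Rrp1 (7.39 RPM), which acts in ribosomal RNA processing, and Bysl (7.27 RPM), needed for the small subunit. RNA-handling genes are Rbm18, Cwc25 (6.47 RPM), a splicing factor, Hnrpdl (6.47 RPM), an RNA-binding protein, and Dus4l (6.33 RPM), a tRNA dihydrouridine synthase. The site between BC026590 and Ikbkap, the scaffold of the Elongator complex, had 7.65 RPM.

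Organelle genes in the same group are Fam82a2 (7.15 RPM), which tethers mitochondria to the endoplasmic reticulum, the mitochondrial carrier Slc25a16 (6.33 RPM), Man1b1 (6.28 RPM, shared with AA543186), a mannosidase of glycoprotein quality control, and 2900064A13Rik (6.19 RPM), whose current symbol is Emc7, a subunit of the endoplasmic reticulum membrane complex. Nfx1 (6.40 RPM) is a zinc finger transcription factor. The remaining names are BC031781 (now Sde2) at 7.74 RPM, Fdxacb1 at 7.25 RPM, Wdr45l at 7.08 RPM, Tmem39a at 6.40 RPM and Unkl at 6.21 RPM.

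Lists of genes were matched to the names on 5 chromosomes (1, 2, 3, 10 and 11), where 144 genes had a strong shared site as nearest gene and 1622 genes had other sites only. The 12 lists together held 39 of the 144 genes (27.1%, Wilson interval 20.5% to 34.9%) and 183 of the 1622 others (11.3%, interval 9.83% to 12.9%). The lists were drawn up with earlier results of these data known, so these counts describe the set and support nothing further. RNA processing and ribosome biogenesis held 9 of 144 genes (6.25%) and 32 of 1622 (1.97%). Its strongest members were Ppil4 (11.2 RPM), Rrp1 (7.39 RPM) and Cwc25 (6.47 RPM), and weaker ones include Exosc9 (3.54 RPM), a subunit of the RNA exosome.

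Mitochondrial gene expression held 6 of 144 genes (4.17%) and 17 of 1622 (1.05%). Its members were the RNA methyltransferase gene Rnmtl1 (6.14 RPM), the RNA helicase gene Supv3l1 (6.04 RPM), Tbrg4 (5.41 RPM) and Fastkd2 (3.94 RPM) of the FASTK family of mitochondrial RNA regulators, and the ribosomal protein genes Mrpl55 (4.60 RPM) and Mrpl12 (3.05 RPM). The respiratory chain list held 2 of 144 and 8 of 1622 genes, with Ndufa10 and Atp5d (3.02 RPM), a subunit of ATP synthase, and also Ndufb6 (4.25 RPM) on a chromosome outside the comparison. Carriers and import held 2 of 144 and 6 of 1622, with Slc25a16 and the phosphate carrier Slc25a3 (5.08 RPM).

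Autophagy held 4 of 144 genes (2.78%, interval 1.08% to 6.92%) and 6 of 1622 (0.370%, interval 0.170% to 0.805%). These 4 were Wdr45l (7.08 RPM), which binds phosphoinositides on forming autophagosomes, Atg5 (3.94 RPM), part of the conjugation machinery, Atg4b (3.66 RPM), the protease that processes LC3, and Becn1 (3.47 RPM), a subunit of the lipid kinase complex. Atg13 is not counted here, because Harbi1 was the nearer gene at its site. Vesicle traffic held 6 of 144 and 31 of 1622, led by Ap2b1 (5.67 RPM), Vps18 (4.16 RPM), a subunit of the endosomal tethering complexes, and Snx16 (4.16 RPM), a sorting nexin.

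Proteasome and ubiquitin genes had similar percentages in the set and outside it, with 3 of 144 (2.08%, interval 0.711% to 5.95%) and 35 of 1622 (2.16%, interval 1.56% to 2.99%), though the interval in the set is wide. Cops8 (6.00 RPM), a subunit of the COP9 signalosome, and Psme3 (4.22 RPM), a proteasome activator, belong to it, and Psmb2 (11.4 RPM) lies outside the chromosomes compared. The cytosolic ribosome held 3 of 144 and 7 of 1622, with Rpl23 (4.65 RPM), Rpl26 (3.19 RPM) and Rpl34-ps1 (3.71 RPM), whose name marks a pseudogene. Translation factors and tRNA synthetases held 2 of 144 and 15 of 1622, with Eprs and Eif4a3 (3.33 RPM), a helicase of the exon junction complex. Chaperones held 2 of 144 and 14 of 1622, with Cct4 (3.97 RPM), a subunit of the chaperonin TRiC, and Dnajb12 (3.02 RPM).

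The lists for the best known roles of CREB held no gene of the set on these chromosomes. Most strong sites on the other chromosomes have no gene name here, so a gene of these lists could stand unnamed in the set. Gluconeogenesis and fasting metabolism held 0 of 144 and 3 of 1622 genes, and the CREB family and immediate early genes held 0 of 144 and 9 of 1622. A count of 0 of 144 allows a share of up to 2.08% by the same limit of 3 counts (Wilson upper bound 2.60%), so these counts do not separate both groups of genes. Among the other named sites was that of 1 gene of the former list, Sik1 (3.09 RPM), a kinase that holds back the CREB coactivators CRTC. Sik1 lies on chromosome 17, where a site was named only if its gene stood in the sheet of fasting-regulated genes, so its presence is no result.

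The study also lists CREB sites at genes induced or repressed by fasting in expression arrays, a selection made on livers of this same experiment and so not independent of it. Of 287 sites listed for induced genes, 8 were strong shared sites (2.79%, Wilson interval 1.42% to 5.40%), and of 323 sites listed for repressed genes 13 were (4.02%, interval 2.37% to 6.76%). The 2 sites listed for both kinds of gene are counted in each, and 0 of them were members. Of the 6939 sites listed for neither, 475 were (6.85%, interval 6.28% to 7.46%). A smaller percentage of the sites at induced genes thus belonged to the set, and a gene can have several sites.

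The strong sites at induced genes were those of Hnrpdl (6.47 RPM), Heca (4.51 RPM), 2310061J03Rik (4.06 RPM), Errfi1 (3.54 RPM), Arl4d (3.28 RPM), Mapk1ip1 (3.21 RPM), Cln8 (3.09 RPM) and Sik1 (3.09 RPM). Errfi1 codes for a feedback inhibitor of the EGF receptor and Arl4d for a small GTPase. Apart from the Hnrpdl site, their heights ran from 3.09 to 4.51 RPM, around and below the median of 4.25 RPM of the set. The site at Sik1, on chromosome 17 from 31584644 to 31584781, was 138 bp wide, with centres 28 bp apart.

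At repressed genes the strong sites reached higher, with Bysl (7.27 RPM), Fdxacb1 (7.25 RPM), Tmem39a (6.40 RPM), Unkl (6.21 RPM), Nktr (5.50 RPM) and Zfand2a (4.41 RPM), an arsenite-inducible zinc finger protein. The other 7 had heights from 3.07 to 3.49 RPM and belonged to Tra2a, a splicing regulator, Gtf2f1, a subunit of the general transcription factor TFIIF, Hspa1a, the inducible heat shock protein of the HSP70 family, Mkks, Opa3, Slc25a37 and Tubb2a. The Hspa1a site, on chromosome 17 from 34590100 to 34590210, had 3.30 RPM and the minimum width of 111 bp. Whether CREB height differed between the fasted and re-fed livers at these genes was not analysed here.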

How the data were processed

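CREB ChIP-seq of 10 mouse livers was analysed from the final peak lists, 1 for each condition. According to the study's methods, reads were aligned to mm8 with Eland and duplicates dropped within a liver. HOMER 3.0 called peaks (5% FDR) on the 5 livers of a condition together, peaks had to recur in each subset of 4 livers, and both sets were merged above a mean height of 0.35 RPM. The deposited signal is a height in the fasted pool, also in the re-fed list. The study's methods describe heights as the highest stack of 108 bp extended reads, scaled to 1000000 reads for each liver and averaged by condition, whereas every deposited value is a whole number of reads of the fasted pool as a whole. The submitters' processing notes name HOMER 3.0 and mm8.

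Members were taken by name and height, and were, like the gene lists, chosen with earlier results of these data known. That the number in a name ranks sites by the mean of both pooled heights was checked against a shortened copy of the study's height table. Coordinates are given as deposited, counting both ends in the width. Gene names and mm8 starts come from the study's gene sheets, of which shortened copies were used. Names on chromosomes 10 to 12 were taken up to 10 kb from a start, and all 187 named members matched a RefSeq gene, 163 of them with a promoter. The sites named by rule are the 10 highest, 5 above the threshold and member pairs within 1000 bp. The genes named are those of the 25 strongest named sites, up to 3 in each list, and all sites at fasting-regulated genes, with a few more chosen after their values were seen (exceptions in width or position, paired promoters and further list members). Chosen likewise were the sites given for being unshared at 3 RPM or more, for a shift in rank, for a near partner or as the highest on the X chromosome. Shares have 95% Wilson intervals, heights Poisson intervals and medians binomial intervals, and the limit of a count of 0 is 3 counts, all for counting error only and over sites, which are not replicates, so no test was run. Functions were checked on simulated data. The tables were made with Python 3.11.15 and scipy 1.17.1, numpy 2.4.6 and pandas 2.3.3, the figures with matplotlib 3.10.9.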

Additional observations from a re-analysis of the deposited data

How the results depend on the processing

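The values describe the deposited pooled lists. Heights of single mice were not used here, so no replicate was left out and the spread between mice was not analysed. No paired analysis was possible because each mouse was in 1 condition only, and each list analysed pools 5 livers and carries no replicate number. Of 41 alternative values over 10 results, 26 stayed within the interval of the value reported (within 1.5 times for a count) and 15 did not. With thresholds of 2, 4 and 5 RPM the number of strong shared sites was 995, 284 and 152. At 4 and 5 RPM 100% of the sites were shared, and at 5 RPM the median width was 115 bp, 94.4% lay within 200 bp of a start and 2.63% had a near neighbour. At 2 RPM 7.04% had one. The share with a neighbour was 2.82% within 500 bp, 7.86% within 5000 bp and 2.62% when only shared sites counted as neighbours. The share near a start was 91.5% within 1000 bp. A full CRE was found for 63.6% of genes with 1 mismatch allowed, and a half-CRE for 74.0% in the 150 bases before the start. Requiring an overlap of 1 bp in place of a shared name left 496 sites. Genes could be named and placed only where the shortened sheets reach, so the values on position and CRE rest on part of the set.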
